A study of Mus musculus with 5 samples.

Results

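The 35 genes described here encode enzymes and regulators of cholesterol and fatty acid synthesis. They were taken by symbol from a table of 23951 genes, all 35 were found, and the rule for choosing them used the symbol and no measured value, although earlier results of these data were known when they were chosen. The cells were E14 mouse embryonic stem cells (ESCs), a model of naive pluripotency, and epiblast stem cells (EpiSCs) that had been derived from ESCs in culture, a model of primed pluripotency. The 5 groups held 1 RNA sequencing library each. The first held ESCs on gelatin in DMEM with fetal bovine serum and LIF, the cytokine that sustains the naive state. In the second, 10 ng/ml of BMP-4 joined LIF in a basal medium for which no serum is listed. The labels name both ESGRO Complete Basal Medium and N2B27 for such cultures and do not say which was used for this library. The other 3 held EpiSCs, grown in N2B27 on serum-coated plates in the presence of Activin A and FGF2: 1 untreated, 1 exposed for 1.5 h and 1 for 24 h to 10 ng/ml of BMP-4. EpiSCs and ESCs thus differed in cell state, medium and growth factors at once, and the ESC libraries differed in serum, basal medium and BMP-4 at once, so these cannot be told apart. No group had a replicate, and no test against a spread between cultures was possible. Since whole cultures were measured, fewer cells that express a gene and less RNA per cell cannot be told apart.

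Cholesterol is built from acetyl-CoA through mevalonate to the isoprenoid farnesyl diphosphate, then through squalene and lanosterol to the finished sterol. Fatty acids are built from the same acetyl-CoA by carboxylation, repeated elongation and desaturation. Both branches are controlled by the SREBP transcription factors, encoded by Srebf1 and Srebf2, which Scap carries out of the endoplasmic reticulum and the Insig proteins hold back when sterols are plentiful. Insig1 and most of the enzyme genes are themselves SREBP targets. SREBPs are known to act together with NF-Y, a factor that binds the CCAAT box, and with Sp1, which binds GC boxes.

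Values are FPKM (fragments scaled to transcript length and to the mapped fragments of the library), and ranges in parentheses are the confidence bounds deposited with them. A difference is one of log2(FPKM + 1), and a fold is a ratio of FPKM + 1, a scale that understates changes of low genes. "Higher" and "lower" in counts mean at least 2-fold on that scale, among genes that averaged 1 FPKM or more across libraries. Of the 35 genes 34 reached that mean. The exception, Hmgcs1 (HMG-CoA synthase), was listed at 0 in all 5 libraries, at a locus on the unplaced mm9 sequence chr13_random. All 60 genes that the table places on such random sequences were listed at 0 in every library, so the 0 of Hmgcs1 carries no information on its expression here. The bounds of the 34 genes were wide: the upper bound lay a median of 66.2% above the value in ESCs with serum and of 55.8% to 58.1% in the other libraries. Reads of 6 members may be divided with other genes: Acat2, Me1, Acaca, Fdft1, Fdps and Idi1 share 26.2% to 41.3% of the 40-base words of their transcripts with transcripts of 1 or more other genes, while 22 members share under 5%. Absolute depth is unknown. From the spacing of low values 1 read was worth 1.57, 1.49, 1.36 and 1.21 times as much FPKM in ESCs with serum, ESCs with BMP-4, untreated EpiSCs and the 1.5 h library as in the 24 h library, so the serum library was the shallowest. Its part in the results was not tested. Markers went with the labels: the 6 naive markers summed to 1759 and 1528 FPKM in the ESC libraries and to between 3.66 and 4.30 in the EpiSC libraries, and the 4 primed markers to 60.9 and 61.4 against 372 to 591 FPKM. Of the markers of liver and fat cells, where this pathway is strong, none of the 3 reached 1 FPKM in any library. The neural markers Sox1 and Pax6 summed to 3.13 FPKM in ESCs with serum and 9.02 in ESCs with BMP-4, and the 5 endoderm markers to at most 0.72 FPKM in ESCs and 6.26 to 8.19 in EpiSCs. Their part in the results below was not tested.

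The promoters are described first, and their part in the differences between libraries was not tested. RefSeq windows of 250 bases before to 50 after the annotated start (build GRCm38.p6) were found for 28 of the 35 genes. The CCAAT box (CCAAT, either strand) was present in a window of 23 of these 28 genes (82.1%), against 43.9% of the 8337 expressed genes with a window (averaging 1 FPKM or more), and 41.1% of all 27025 genes with a window. Among genes with a single window it was present in 18 of 22 members and in 40.4% of expressed genes, and at least 2 copies were present in 10 of 22 members and in 16.4% of expressed genes. The GC box (GGGCGG, either strand) was present in 23 of 28 members and 72.3% of expressed genes. The E-box CACGTG was present in 6 of 28 members and 12.3% of expressed genes. Forms of the sterol element searched on both strands were rare: TCACNCCAC was found in the window of Hmgcs1 and in 1.39% of expressed genes, TCACNCCAT in Msmo1 and Srebf2 and in 0.684%, the shorter TCACCCC, which overlaps these forms, in Hmgcs1, Srebf2 and Insig2 and in 6.32%, and TCGCCCCAC, like TCACNCCAC with an A before it, in no member. A match is a run of letters and not a shown binding site.

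Windows of 5 members are shown to let the spacing of the boxes be read, 1 for each step of the pathway: the member with a single window, a CCAAT box and the highest mean level of its step. Capitals mark CCAAT or its reverse complement and, in Msmo1 and Srebf2, the sterol element form, and each window runs 5′ to 3′ on the strand of the gene. They lie at chr13:8885356-8885655, plus strand (Idi1), chr8:64733529-64733828, minus strand (Msmo1), chr15:82147019-82147318, plus strand (Srebf2), chr11:100527951-100528250, minus strand (Acly) and chr9:77917115-77917414, plus strand (Elovl5).
Idi1: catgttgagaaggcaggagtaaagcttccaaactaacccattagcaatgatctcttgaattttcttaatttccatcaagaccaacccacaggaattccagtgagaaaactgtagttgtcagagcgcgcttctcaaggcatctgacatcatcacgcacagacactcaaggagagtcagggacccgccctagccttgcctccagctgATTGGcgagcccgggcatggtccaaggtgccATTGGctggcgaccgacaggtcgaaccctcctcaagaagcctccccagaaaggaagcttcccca
Msmo1: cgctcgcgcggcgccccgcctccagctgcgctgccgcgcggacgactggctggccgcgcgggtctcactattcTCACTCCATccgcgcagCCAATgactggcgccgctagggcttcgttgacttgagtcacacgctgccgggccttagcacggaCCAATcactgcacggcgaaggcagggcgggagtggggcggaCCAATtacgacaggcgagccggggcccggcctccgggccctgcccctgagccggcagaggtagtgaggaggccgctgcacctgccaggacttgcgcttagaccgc
Srebf2: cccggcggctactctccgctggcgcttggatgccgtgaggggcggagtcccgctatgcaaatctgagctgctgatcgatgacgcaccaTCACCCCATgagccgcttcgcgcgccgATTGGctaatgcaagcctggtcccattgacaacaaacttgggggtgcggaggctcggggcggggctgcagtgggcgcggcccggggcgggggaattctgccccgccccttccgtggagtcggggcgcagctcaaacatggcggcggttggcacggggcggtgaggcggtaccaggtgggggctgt
Acly: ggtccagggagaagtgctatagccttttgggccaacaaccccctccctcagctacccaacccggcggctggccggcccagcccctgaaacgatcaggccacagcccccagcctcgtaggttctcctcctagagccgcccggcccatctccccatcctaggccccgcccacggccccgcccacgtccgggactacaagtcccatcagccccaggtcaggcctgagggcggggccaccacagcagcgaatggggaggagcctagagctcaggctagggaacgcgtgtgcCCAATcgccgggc
Elovl5: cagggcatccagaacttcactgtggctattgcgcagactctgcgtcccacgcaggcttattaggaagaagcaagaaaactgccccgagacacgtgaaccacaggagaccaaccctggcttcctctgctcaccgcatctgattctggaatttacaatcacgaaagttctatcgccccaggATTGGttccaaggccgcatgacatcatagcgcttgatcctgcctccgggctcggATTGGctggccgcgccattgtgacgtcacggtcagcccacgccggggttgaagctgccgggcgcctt
Msmo1 held 3 CCAAT boxes and 1 sterol element form, Srebf2 held 1 of each, Idi1 and Elovl5 held 2 CCAAT boxes, and the single box of Acly lay after the start site. Fads2, of the same step as Elovl5, had no CCAAT box in its window, and the other genes of that step had no window. Whether boxes go with differences between libraries was not tested. Over all windows of the members 47 boxes were counted, with a median first base 60 bases before the start site, and 44.7% lay between 120 and 40 bases before it. Among expressed genes the median was 87 bases before the start, and 41.5% lay in that range.

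**Figure D1:**
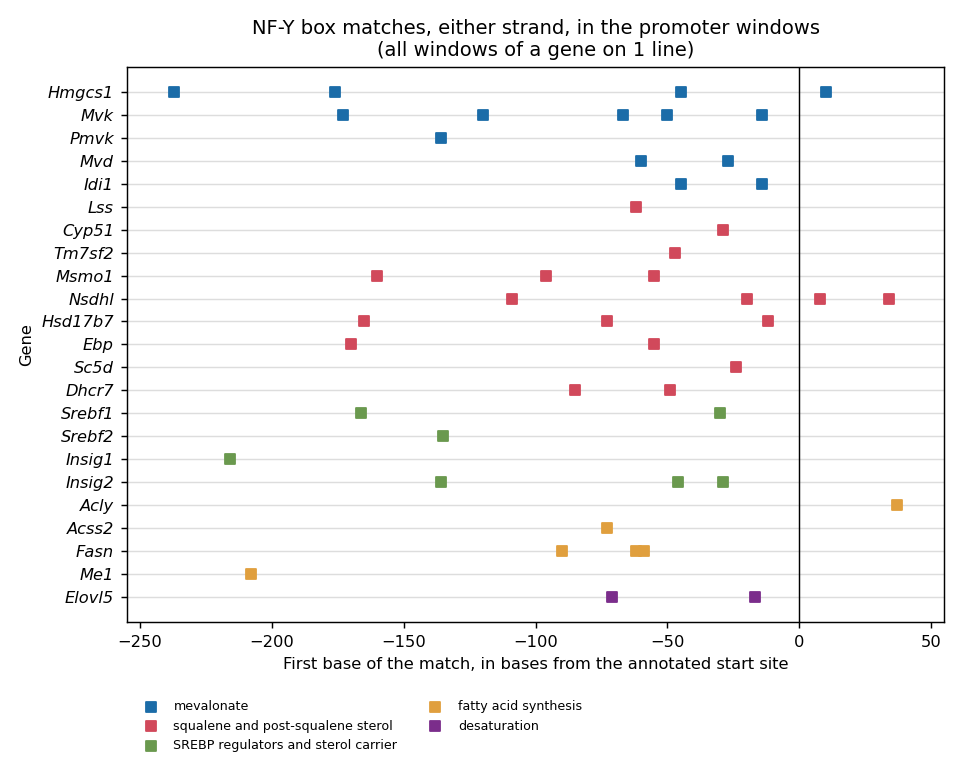
Positions of CCAAT boxes (the box bound by NF-Y) in the promoter windows of the 23 members that held at least 1; the x axis is the distance of the first base from the annotated start site in bases, each row is a gene, and colours give the step of the pathway. The 47 matches have a median of 60 bases before the start.

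The library of ESCs in LIF and serum had the lowest level of nearly the whole pathway. It was the lowest of the 5 libraries for 30 of 34 members, against 25.4% of all genes compared. The exceptions were Ebp, Scap, Acly and Me1. Summed over the members, FPKM came to 871 in ESCs with serum, 1635 in ESCs with BMP-4, 2043 in untreated EpiSCs, 2027 after 1.5 h and 1826 after 24 h of BMP-4. The order serum below BMP-4 below untreated EpiSCs held for 26 of 34 members and 20.3% of all genes. In 21 of 34 members all 3 EpiSC libraries lay above both ESC libraries, as in 34.9% of all genes.

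**Figure D2:**
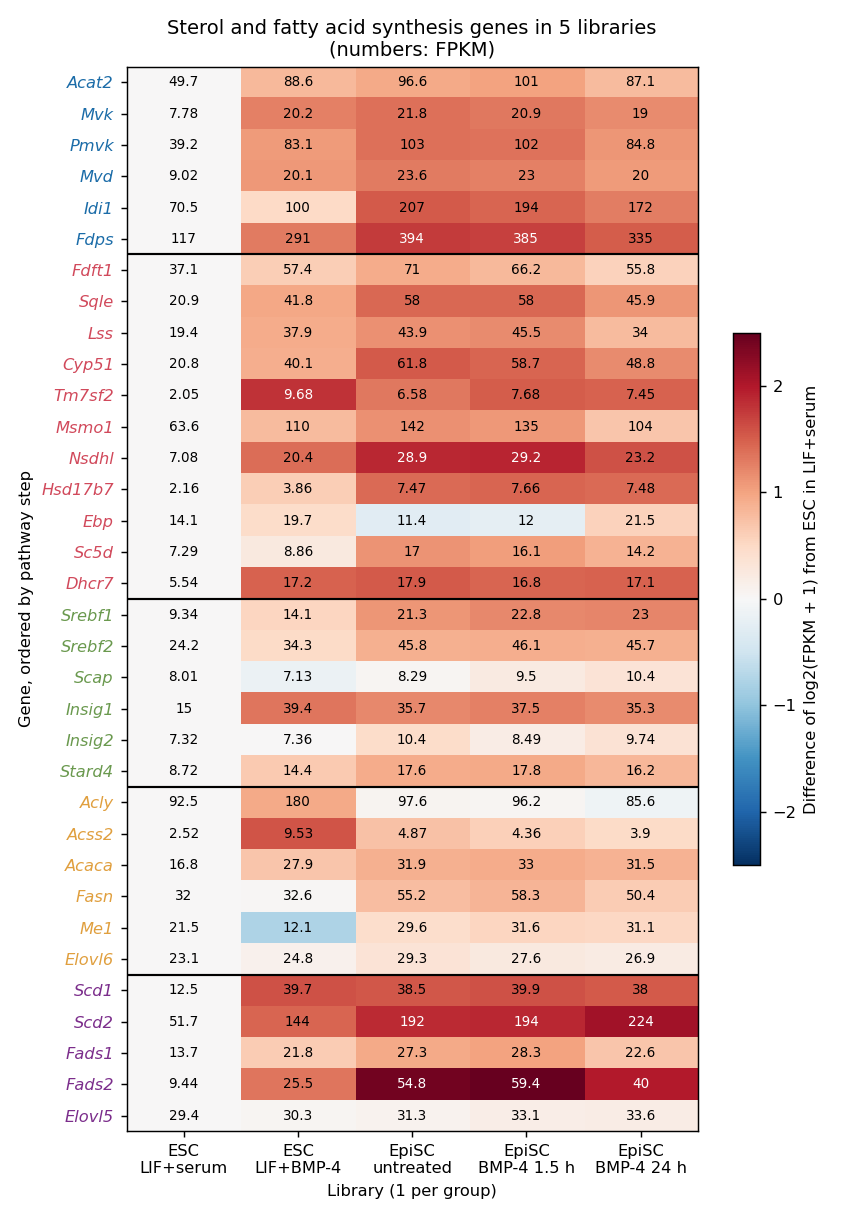
FPKM (numbers) of the 34 expressed members in the 5 libraries (columns, 1 per group); colour is the difference of log2(FPKM + 1) from ESCs in LIF and serum, and rows follow the steps of the pathway, with the colour of a gene's name marking its step. Most rows turn red to the right of the first column, while Elovl5 and Scap stay pale and Me1 is blue in ESCs with BMP-4.

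Between the ESC libraries, 12 of 34 members were higher with LIF and BMP-4 than with LIF and serum and 0 were lower, against 2.61% higher and 1.28% lower among all 11010 genes compared. The median difference was 0.80 for the members and -0.02 for all genes, and 32 of 34 members lay above 0, as did 47.6% of all genes, while 2 of 34 and 52.1% lay below it. The higher genes were Mvk, Pmvk, Mvd and Fdps of the mevalonate step, Tm7sf2, Nsdhl and Dhcr7 of the sterol step, Insig1, Acss2, Scd1, Scd2 and Fads2. Intervals were apart for 1 of the 12, Scd2, and overlapped for the others. Among all genes 0.163% were higher and 0.0363% lower with intervals apart.

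Between cell types, the untreated EpiSC library was higher than ESCs with serum for 19 of 34 members and lower for 0, against 11.6% higher and 9.55% lower among all 11007 genes compared. The median difference was 1.13 for the members and -0.01 for all genes, and 33 of 34 members lay above 0 (48.8% of all genes) and 1 below (51.1%). Intervals were apart for 5 of the 19, Idi1, Fdps, Cyp51, Scd2 and Fads2, and for 2.68% of all genes in that direction and 2.84% in the other. Both this comparison and the one between ESC libraries rest on the same serum library, and 11 members were at least 2-fold above it in both, as were 0.745% of all genes. With the other EpiSC libraries set against the same serum library, alternatives chosen after the data were seen, 21 members were higher with the 1.5 h library and 16 with the 24 h library, and the median was 0.88 with the latter.

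Untreated EpiSCs lay much closer to ESCs in LIF and BMP-4. There 3 of 34 members were higher, Idi1, Me1 and Fads2, and 0 lower, against 11.0% and 10.0% of all genes, so the members' share was near or below that of all genes. The median difference was 0.30 against 0.00 for all genes, 28 of 34 members lay above 0 (50.3% of all genes) and 6 below (49.5%), and the intervals overlapped for all 34, while 2.39% of all genes were higher and 3.11% lower with intervals apart. With the 24 h library in place of untreated EpiSCs 1 member (Me1) was higher and 2 (Acly and Acss2) were lower. Without the 6 members that share sequence only Fads2 was higher in untreated EpiSCs.

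**Figure D3:**
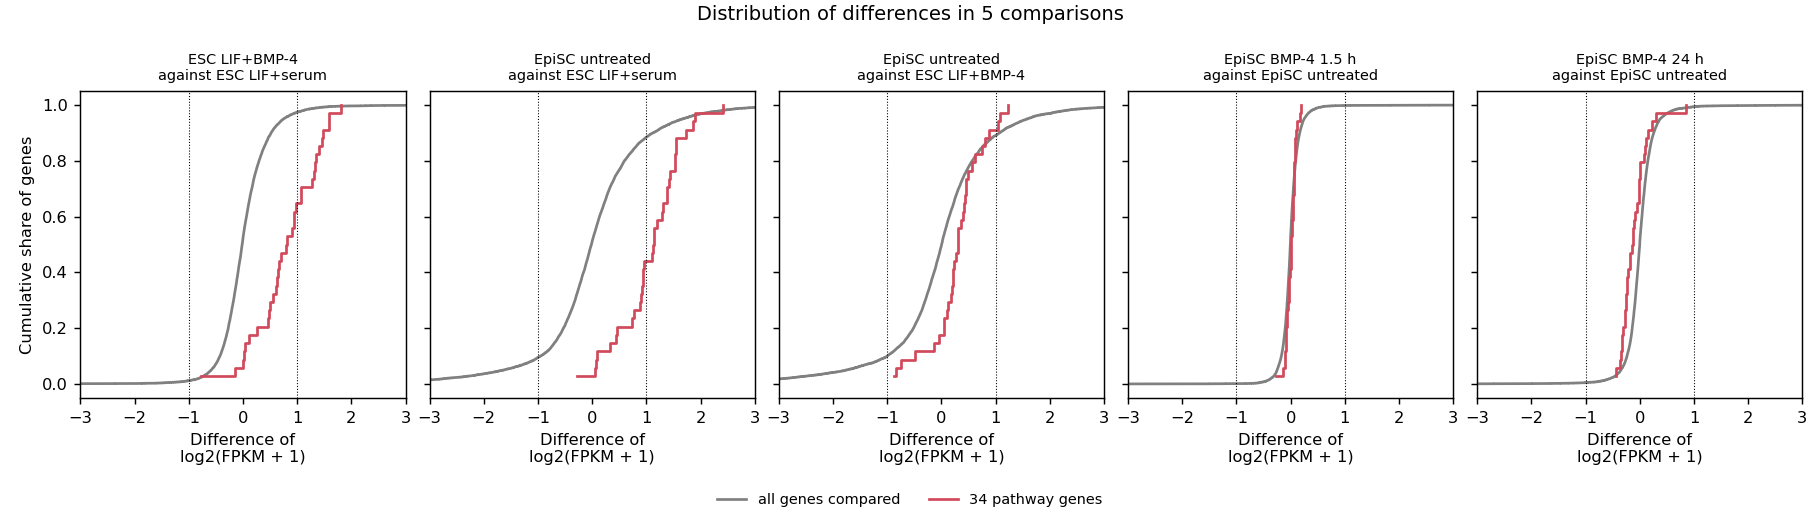
Cumulative share of genes (y axis) by difference of log2(FPKM + 1) (x axis) in the 5 comparisons, for the 34 members (red) and all genes compared (grey); dotted lines mark 2-fold. The red curve lies right of the grey one in the 2 comparisons with ESCs in serum, with medians of 0.80 and 1.13.

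Mevalonate step. All 6 measured genes of this step were above their serum level in ESCs with BMP-4 (median difference 1.07, 4 higher) and in untreated EpiSCs (median 1.37, 5 higher). Fdps makes farnesyl diphosphate, the branch point to sterols and to prenylated proteins, and had the highest level of all 34 members in every library (mm9 chromosome 3, 88897510 to 88905889). It stood at 117 FPKM (53.1 to 182) in ESCs with serum, 291 (161 to 422) in ESCs with BMP-4, 394 (224 to 564) in untreated EpiSCs, 385 after 1.5 h and 335 after 24 h. The serum library alone was low, and the fold over it was 2.47 in ESCs with BMP-4 and 3.34 in EpiSCs. Idi1, the isomerase that supplies dimethylallyl diphosphate, lay above both ESC libraries in the 3 EpiSC libraries. Such an order held for 34.9% of all genes. Idi1 stood at 70.5 FPKM (36.2 to 105) with serum and 100.3 (54.3 to 146) in ESCs with BMP-4. In untreated, 1.5 h and 24 h EpiSCs it stood at 207 (123 to 292), 194 and 172. Untreated EpiSCs were 2.91-fold above ESCs with serum, with intervals apart. They were 2.06-fold above ESCs with BMP-4, with overlapping intervals.

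The kinases and the decarboxylase between mevalonate and Idi1 were low in the serum library alone. Mevalonate kinase, Mvk, stood at 7.78 FPKM with serum and at 20.2, 21.8, 20.9 and 19.0 in ESCs with BMP-4 and in untreated, 1.5 h and 24 h EpiSCs. Phosphomevalonate kinase, Pmvk, stood at 39.2 with serum and at 83.1, 103, 102 and 84.8 FPKM in the same order. The decarboxylase Mvd stood at 9.02 and then at 20.1, 23.6, 23.0 and 20.0 FPKM. For these 3 genes the untreated EpiSC level was within 1.24-fold of that of ESCs with BMP-4. Acat2, the cytosolic thiolase at the head of the pathway, stood at 49.7 FPKM with serum and between 87.1 and 101 elsewhere. Its transcripts share 41.3% of their 40-base words with Acat3, the neighbouring gene, named after its values were seen, which went the other way (101 FPKM with serum, 81.9 to 92.4 elsewhere), so reads of the pair may be divided between them.

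**Figure D4:**
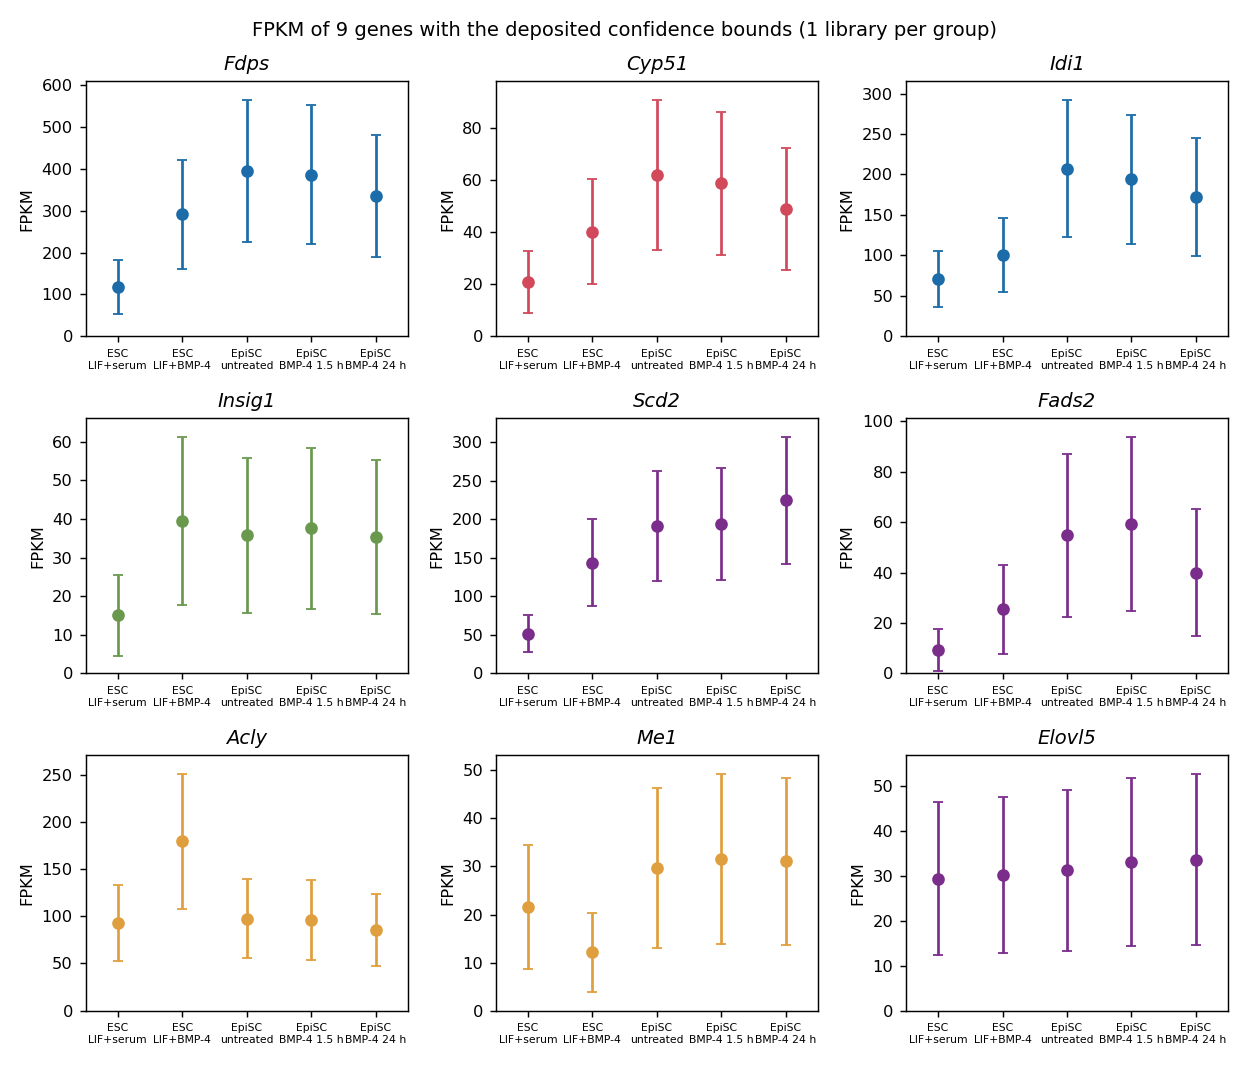
FPKM (y axis, from 0) of 9 members in the 5 libraries (x axis, 1 library per group), with bars for the deposited confidence bounds and colours for the step of the pathway. Fdps, Cyp51, Insig1, Scd2 and Fads2 are lowest with serum, Idi1 is high in the 3 EpiSC libraries, Acly is high in ESCs with BMP-4 alone, Me1 is lowest there, and Elovl5 is flat.

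Squalene and sterol step. Of 11 genes, 3 were higher in ESCs with BMP-4 and 9 in untreated EpiSCs, each against serum (medians 0.91 and 1.31), and all 11 and 10 of 11 lay above 0. Cyp51, the lanosterol demethylase (mm9 chromosome 5, 4080674 to 4104697), stood at 20.8 FPKM (9.04 to 32.6) with serum, 40.1 (20.0 to 60.1) in ESCs with BMP-4, 61.8 (33.1 to 90.6) in untreated EpiSCs, 58.7 after 1.5 h and 48.8 after 24 h. The EpiSC libraries were the highest and the serum library the lowest, with a fold of 2.88 between the untreated library and serum. Sqle, squalene epoxidase, a flux-controlling enzyme, took the same order at 20.9, 41.8, 58.0, 58.0 and 45.9 FPKM. Nsdhl, a sterol dehydrogenase that removes methyl groups with Msmo1, had the largest fold of the step in EpiSCs, 3.71, from 7.08 FPKM (0.873 to 13.3) to 28.9 (10.9 to 47.0), with 20.4 in ESCs with BMP-4, 29.2 after 1.5 h and 23.2 after 24 h.

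Fdft1 (squalene synthase), Lss (lanosterol synthase) and Msmo1 (the methyl oxidase) were lowest with serum, at 37.1, 19.4 and 63.6 FPKM. Their untreated EpiSC levels were 71.0, 43.9 and 142 FPKM, 1.89-fold, 2.21-fold and 2.21-fold above serum, and in ESCs with BMP-4 they stood at 57.4, 37.9 and 110.4. Hsd17b7, a keto-sterol reductase, and Sc5d, a sterol desaturase, were higher in the 3 EpiSC libraries than in either ESC library. Hsd17b7 stood at 2.16 and 3.86 FPKM in the ESC libraries and 7.47 to 7.66 in the EpiSC libraries. Sc5d stood at 7.29 and 8.86 in ESCs and 14.2 to 17.0 in EpiSCs. Such an order, with all 3 EpiSC libraries above both ESC libraries, held for 34.9% of all genes. For both genes the interval of untreated EpiSCs overlapped that of each ESC library.

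Dhcr7, the reductase of the last step, was low with serum alone: 5.54 FPKM (0.677 to 10.4) against 17.2, 17.9, 16.8 and 17.1 in the other 4 libraries. Tm7sf2, another sterol reductase, was highest in ESCs with BMP-4 at 9.68 FPKM, lowest with serum at 2.05 and between 6.58 and 7.68 in EpiSCs. Its lower bounds were 0 in all libraries. Ebp, the sterol isomerase, was the member of this step that went its own way. It stood at 14.1 and 19.7 FPKM in ESCs with serum and BMP-4, at 11.4 and 12.0 in untreated and 1.5 h EpiSCs, and at 21.5 (6.55 to 36.5) after 24 h, and its intervals overlapped throughout.

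Regulators. Of the 6 regulators, 1 (Insig1) was higher in ESCs with BMP-4 than with serum and 2 (Insig1 and Srebf1) in untreated EpiSCs. Insig1, the sterol-dependent brake on SREBP and itself an SREBP target, stood at 15.0 FPKM (4.58 to 25.5) with serum and at 39.4 (17.6 to 61.2), 35.7 (15.6 to 55.9), 37.5 and 35.3 in ESCs with BMP-4 and in untreated, 1.5 h and 24 h EpiSCs. It was thus low in the serum library alone, with overlapping intervals. Insig2, its paralog, stood at 7.32 and 7.36 FPKM in the ESC libraries and at 8.49 to 10.4 in EpiSCs. Srebf2, which mainly drives sterol genes, stood at 24.2 FPKM with serum, at 34.3 in ESCs with BMP-4 and 45.7 to 46.1 in EpiSCs. Srebf1, which mainly drives fatty acid genes, stood at 9.34, 14.1 and 21.3 to 23.0 FPKM, with 2.16-fold between untreated EpiSCs and serum. Scap, the escort of SREBP, differed little, from 7.13 FPKM in ESCs with BMP-4 to 10.4 after 24 h. Stard4, a cytosolic sterol carrier, stood at 8.72 FPKM with serum, 14.4 in ESCs with BMP-4 and 16.2 to 17.8 in EpiSCs.

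Fatty acid synthesis. This step had the lowest median difference of the 5 steps in both comparisons: 1 of 6 genes was higher in ESCs with BMP-4 (median 0.40) and 0 of 6 in untreated EpiSCs (median 0.59), each against serum. All 6 lay above serum in EpiSCs, and 5 of 6 in ESCs with BMP-4. The enzymes that make cytosolic acetyl-CoA were highest in ESCs with BMP-4 alone. Acly, ATP citrate lyase, stood there at 179.6 FPKM (108 to 251), against 92.5 (52.1 to 133) with serum and 97.6, 96.2 and 85.6 in untreated, 1.5 h and 24 h EpiSCs. Acss2, which makes acetyl-CoA from acetate, stood at 2.52 FPKM (0 to 5.15) with serum, 9.53 (2.22 to 16.8) in ESCs with BMP-4 and 3.90 to 4.87 in EpiSCs. Me1, the cytosolic malic enzyme that yields NADPH, had the opposite pattern and was lowest there: 12.1 FPKM (3.91 to 20.4), against 21.5 with serum and 29.6, 31.6 and 31.1 in EpiSCs. Intervals overlapped in all comparisons of these 3 genes.

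Acaca and Fasn are the carboxylase and the synthase of the chain itself. Between the ESC libraries Acaca differed 1.62-fold and Fasn 1.02-fold, both under 2-fold and with overlapping intervals. Acaca stood at 16.8 FPKM with serum, 27.9 in ESCs with BMP-4 and 31.5 to 33.0 in EpiSCs. Fasn stood at 32.0 and 32.6 FPKM in the ESC libraries and at 55.2, 58.3 and 50.4 in untreated, 1.5 h and 24 h EpiSCs. Elovl6, which elongates palmitate, lay between 23.1 and 29.3 FPKM in all libraries.

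Desaturation. Of the 5 genes 3, Scd1, Scd2 and Fads2, were higher both in ESCs with BMP-4 and in untreated EpiSCs than with serum (medians 1.34 and 1.55). The stearoyl-CoA desaturases Scd1 and Scd2 make monounsaturated fatty acids, and their genes lie in 1 cluster with Scd3 and Scd4 on mm9 chromosome 19. Scd1 stood at 12.5 FPKM (4.74 to 20.3) with serum and at 39.7, 38.5, 39.9 and 38.0 in ESCs with BMP-4 and in untreated, 1.5 h and 24 h EpiSCs. Scd2 stood at 51.7 (27.7 to 75.8), 144, 192 (120.3 to 263), 194 and 224 (143 to 306) FPKM, with a lower bound of 87.7 in ESCs with BMP-4. For Scd1 the 4 libraries other than serum were level, while Scd2 was highest after 24 h of BMP-4, and its interval was apart from that of serum in both comparisons. They share 6.28% (Scd1) and 5.33% (Scd2) of their 40-base words with other genes.

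Fads2, the first desaturase of polyunsaturated fatty acids, had the largest difference of all members between untreated EpiSCs and serum, 5.35-fold. It stood at 9.44 FPKM (1.12 to 17.8) with serum, 25.5 (7.74 to 43.2) in ESCs with BMP-4, 54.8 (22.4 to 87.2) in untreated EpiSCs, 59.4 after 1.5 h and 40.0 after 24 h. Fads1, the next desaturase of that route and a gene close to it on the chromosome, was also lowest with serum: 13.7 FPKM, then 21.8, 27.3, 28.3 and 22.6. Elovl5, which elongates their products, lay between 29.4 and 33.6 FPKM in all 5 libraries.

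**Figure D5:**
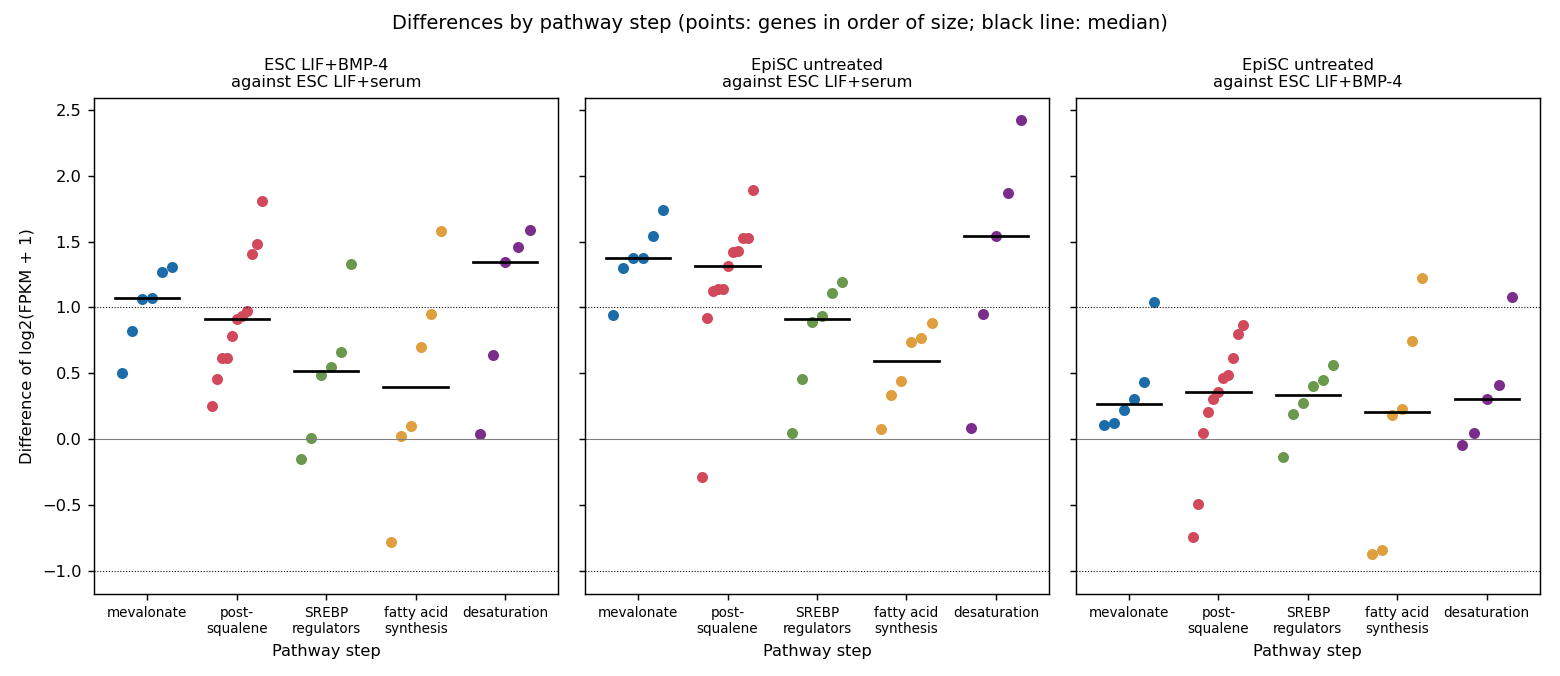
Difference of log2(FPKM + 1) of each member (points, ordered by size within a step) by pathway step in 3 comparisons; black lines are medians and dotted lines mark 2-fold. Medians of the mevalonate step are 1.07, 1.37 and 0.26 from left to right, and those of fatty acid synthesis 0.40, 0.59 and 0.21.

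Treatment of EpiSCs with BMP-4 left every member within 2-fold, as it did nearly all genes. After 1.5 h 0 of 34 members were higher or lower, against 0.236% and 0.182% of all genes, with a median of 0.01 and differences from -0.27 (Insig2) to 0.19 (Tm7sf2). There 20 of 34 members lay above 0 (47.2% of all genes) and 14 below (51.9%). After 24 h 0 of 34 were again higher or lower, against 0.654% and 0.527% of all genes. The median was -0.14 against 0.00 for all genes, and 26 of 34 members lay below their untreated value, as did 50.2% of all genes, with 8 above it (49.1%). All 6 mevalonate genes lay below it (-0.28 to -0.15), as did 8 of 11 sterol genes, with Msmo1 (-0.44, 142 and 104 FPKM), Lss (-0.36) and Cyp51 (-0.34) among them, and Fads2 (-0.44). Ebp (0.86), Scap (0.29) and Scd2 (0.23) lay above it. All 34 intervals overlapped at both times, and both comparisons share the untreated library. Among all genes 0.0273% were higher and 0.0% lower with intervals apart after 1.5 h, and 0.0545% and 0.0273% after 24 h. The mesoderm markers T and Mesp1 summed to 11.9 FPKM in untreated EpiSCs and 96.6 after 24 h, and their part in this difference was not tested.

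Further genes of lipid metabolism were listed in the same way by function. Of 10 measured genes of sterol branches and transport 0 were higher or lower in ESCs with BMP-4 than with serum (median 0.19). Among all genes 2.61% were higher and 1.28% lower there. In untreated EpiSCs against serum 11.6% of all genes were higher and 9.55% lower, and this list was near these shares. There 1 of the 10 was higher and 1 lower (median 0.23), both with intervals apart (2.68% and 2.84% of all genes). The higher was Soat1, which esterifies cholesterol (2.25, 2.69, 17.5, 17.8 and 27.4 FPKM in the order of the libraries). The lower was the cholesterol exporter Abca1 (3.64, 2.19, 0.0654, 0.0585 and 0.110 FPKM), named after its values were seen. Lbr, a sterol reductase of the nuclear envelope, stood at 30.2 FPKM with serum and 43.0 to 46.2 elsewhere. Of 8 genes of SREBP processing and turnover 0 were higher or lower with BMP-4 in ESCs (median -0.13), and their median in untreated EpiSCs against serum was 0.05. Erlin1, of the endoplasmic reticulum membrane, was lower in untreated EpiSCs than with serum (11.1 and 4.54 FPKM, with overlapping intervals). The protease gene Mbtps1 lay between 62.1 and 70.1 FPKM in all libraries.

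Of 8 measured further genes of fatty acid synthesis and elongation, 1 was higher in ESCs with BMP-4 than with serum (2.61% of all genes). It was the mitochondrial citrate carrier Slc25a1 (26.6 and 61.8 FPKM). In untreated EpiSCs 3 were higher than with serum (11.6% of all genes), and the intervals of all these genes overlapped. Median differences of the 8 genes from serum were 0.12 with 6 of 8 above 0 and 0.64 with 7 of 8 above 0. The latter was close to the 0.59 of the members' own step of fatty acid synthesis. The 3 higher in untreated EpiSCs were Mid1ip1, an activator of acetyl-CoA carboxylase (7.21 and 27.8 FPKM), and the elongases Elovl1 (3.18 and 7.51 FPKM) and Elovl4 (3.36 and 7.82 FPKM). Of 4 genes of NADPH supply 0 were higher or lower in either comparison, although all 4 lay above serum in both (medians 0.20 and 0.22), and Idh1, the cytosolic isocitrate dehydrogenase, stood at 39.0 FPKM with serum and at 71.8 in ESCs with BMP-4. Of 8 genes of fatty acid oxidation 0 were higher or lower between the ESC libraries (median 0.02). In untreated EpiSCs Acadl (7.55 and 44.2 FPKM) and Cpt2 (3.34 and 9.26 FPKM) were higher than with serum. Cpt1a, which admits fatty acids to mitochondria, was lower (11.3 and 2.29 FPKM), and the list median was -0.31. Among all genes 11.6% were higher and 9.55% lower in that comparison.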

How the data were processed

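RNA was measured in 5 libraries of 5 groups. The authors deposited FPKM per gene with lower and upper confidence bounds and a status, per the file headers. The submitters' processing notes name TopHat, Cufflinks 2.0.13, Picard, SAMtools and mm9. The sources used here do not give the annotation, the use of strand or the scaling between libraries. Fragments of poly(A) RNA went into a small RNA kit that keeps the strand, per the labels' protocols.

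Differences of log2(FPKM + 1) were computed with pandas and NumPy (Python 3.11.15) over genes averaging 1 FPKM or more, with status OK in both libraries. The calculation was tested on simulated data with large planted differences and little noise, which does not show how reliable 2-fold calls are here. With 1 library per group no test was made, and deposited bounds are no spread between cultures. Relative depth came from the most frequent ratio of values below 0.5 FPKM. Positions are mm9, written from 1. Of 22460 symbols matched in RefSeq, 8129 had the same span when the file's starts were read as counted from 0, and 515 when read from 1. Sequence shared with other genes was the share of 40-base words found in other GENCODE M21 transcripts. Promoter windows came from RefSeq, and 33 of 37 windows of members matched a transcript of the gene in the printed direction and 0 in the reverse. All 35 members may be named. Of the further genes up to 4 higher and 4 lower per list that reached 5 FPKM were named, and any gene that stands at a step of the pathway. Members and lists were chosen with earlier results of these data known. Alternatives were another pseudocount, other minimum levels, centred libraries, other EpiSC libraries and leaving out members that share sequence. The last 2 were chosen after seeing the data. Some results of the further lists are not reported here.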

Additional observations from a re-analysis of the deposited data

How the results depend on the processing

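No paired analysis was possible because there was 1 library per group. Of 90 values recomputed under alternatives, 86 stayed within 1.5 times a count or 0.2 of a median log2 difference. Many had little room to move, so this tally says little on reliability. Most counts of lower members were 0 under every setting, and a minimum of 5 FPKM left out none of the members compared. The 4 values that moved further concern untreated EpiSCs. With the 24 h library in their place, the median difference from ESCs in serum was 0.88, and 1 member was higher and 2 lower than in ESCs with BMP-4. Without the 6 members that share at least 20% of their 40-base words with other genes (Acat2, Idi1, Fdps, Fdft1, Acaca and Me1), 1 member was higher than in ESCs with BMP-4, and of the 28 left 11 were higher in ESCs with BMP-4 than with serum and 17 in untreated EpiSCs than with serum. Centring moved the median of all genes at 5 FPKM or more by at most 0.05. FPKM hide the depth, so counting error could not be given.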
